A study of Mus musculus with 24 samples.

Results

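The regions described here are the 6116 peaks of acetylated histone H3 lysine 27 (H3K27ac) that lay in chromatin labelled as repressed. They were taken from 144154 peaks by the chromatin state deposited beside each peak and by a width under 10000 bp, and made up 4.24% of the peaks. A further 16 peaks of the same state were wider and were left out. The chromatin map behind the states is not given in the sources used here, so whether it was drawn from neurons or from these libraries is not known.

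H3K27ac was profiled by low-input chromatin immunoprecipitation sequencing in nuclei of the hippocampus, from the dentate gyrus by the tissue label, sorted by FACS for the neuronal nuclear protein NeuN. All mice were male C57BL/6J of 12 weeks. In the HDACi-CFC group, mice were injected intraperitoneally with 30 mg/kg of CI-994, which blocks the class I histone deacetylases, and 1 h later went through contextual fear conditioning (CFC), which was 3 min of habituation and then 2 foot shocks of 1 s at 0.2 mA. In the Veh-CFC group, mice received vehicle and the same conditioning. In the HDACi-Context group, mice received CI-994 and spent as long in the chamber without shock, and in the Veh-Context group they received vehicle and no shock. Mice of every group were killed 1 h after the session, and each group had 3 libraries. Drug was assigned to mice at random, but cage mates shared the session, so effects of shock and of cage cannot be told apart. The labels do not say that replicates came from separate animals, so the p-values measure only the spread between these samples. The series text counts treatments and replicates differently from the sample labels, on which the grouping rests.

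H3K27ac is laid down by acetyltransferases such as p300 and CBP, is removed by class I deacetylases, and marks active promoters and enhancers. Repressed chromatin of the Polycomb kind carries methylation on the same lysine, which excludes acetylation there, and is known for holding developmental transcription factors and genes of other cell lineages silent in mature neurons.

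Promoter sequence was at hand for 182 start-site windows that lay wholly inside these peaks, out of 32851 windows of 300 bases in the RefSeq table (build GRCm38.p6, 250 bases before to 50 after the start). They belonged to 154 genes, of which 80 were protein-coding, and to 153 peaks. The windows held a median of 5 CpG dinucleotides (quartiles 3 and 8), against 14 (quartiles 8 and 19) in the 3150 windows inside strong-promoter peaks and 7 over the whole table. Only 5 of the 182 windows held 20 CpG or more. The 6 promoters below are shown because their peaks carry the results that follow. They are those of Zfp536 (a zinc finger repressor of neuronal differentiation), Emx2 (a homeobox factor of the dorsal forebrain), Lhx9 (a LIM homeobox factor), Slc1a3 (the astrocyte glutamate transporter GLAST), Ptgds (a prostaglandin D synthase) and Cmtm5 (a MARVEL-domain membrane protein). They were chosen after their values were seen. Capitals mark CpG dinucleotides.
Zfp536 (chr7:37769703-37770002, minus strand): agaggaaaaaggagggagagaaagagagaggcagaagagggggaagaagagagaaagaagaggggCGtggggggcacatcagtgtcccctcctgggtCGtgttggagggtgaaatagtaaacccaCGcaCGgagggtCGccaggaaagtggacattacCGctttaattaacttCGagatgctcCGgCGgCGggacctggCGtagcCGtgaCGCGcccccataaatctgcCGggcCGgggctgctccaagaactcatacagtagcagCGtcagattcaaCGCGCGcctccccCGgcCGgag
Emx2 (chr19:59458440-59458739, plus strand): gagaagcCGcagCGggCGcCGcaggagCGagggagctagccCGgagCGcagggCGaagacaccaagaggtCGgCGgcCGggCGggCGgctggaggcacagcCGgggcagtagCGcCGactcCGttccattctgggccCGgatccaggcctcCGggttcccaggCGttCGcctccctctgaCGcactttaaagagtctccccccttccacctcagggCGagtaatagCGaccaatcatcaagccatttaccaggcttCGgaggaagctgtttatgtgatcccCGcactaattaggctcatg
Lhx9 (chr1:138842395-138842694, minus strand): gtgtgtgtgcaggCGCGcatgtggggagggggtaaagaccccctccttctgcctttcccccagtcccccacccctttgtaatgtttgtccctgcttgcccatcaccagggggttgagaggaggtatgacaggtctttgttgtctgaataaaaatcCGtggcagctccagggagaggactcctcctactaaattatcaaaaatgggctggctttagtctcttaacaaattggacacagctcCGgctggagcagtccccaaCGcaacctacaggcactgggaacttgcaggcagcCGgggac
Slc1a3 (chr15:8710758-8711057, minus strand): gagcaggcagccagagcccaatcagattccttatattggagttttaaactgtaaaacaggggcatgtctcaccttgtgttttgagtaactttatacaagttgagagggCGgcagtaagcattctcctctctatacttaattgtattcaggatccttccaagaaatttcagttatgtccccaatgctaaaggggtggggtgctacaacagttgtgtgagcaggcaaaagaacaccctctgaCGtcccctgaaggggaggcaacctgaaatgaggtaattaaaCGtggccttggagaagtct
Ptgds (chr2:25469700-25469999, minus strand): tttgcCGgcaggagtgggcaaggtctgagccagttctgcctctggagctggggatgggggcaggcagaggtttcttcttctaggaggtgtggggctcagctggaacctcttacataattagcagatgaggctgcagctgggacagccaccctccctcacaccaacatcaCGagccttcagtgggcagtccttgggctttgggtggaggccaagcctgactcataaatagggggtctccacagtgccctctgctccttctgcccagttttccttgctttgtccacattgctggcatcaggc
Cmtm5 (chr14:54936220-54936519, plus strand): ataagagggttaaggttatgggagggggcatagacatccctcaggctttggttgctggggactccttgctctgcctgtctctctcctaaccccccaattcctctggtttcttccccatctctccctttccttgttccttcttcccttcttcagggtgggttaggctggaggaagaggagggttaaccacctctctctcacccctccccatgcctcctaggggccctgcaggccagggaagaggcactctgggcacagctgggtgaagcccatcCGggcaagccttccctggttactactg

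The Zfp536 and Emx2 windows held 22 and 26 CpG, whereas those of Slc1a3 and Lhx9 held 3 and 6, that of Ptgds held 2 and that of Cmtm5 held 1. Short motifs were counted on both strands of each window. The GC box GGGCGG was found in 27 of the 182 windows (14.8%), against 43.1% of windows inside strong-promoter peaks and 35.7% of all windows. The E-box CAGATG was found in 40 (22.0%), against 13.8% and 17.2%, and the nuclear factor I site TTGGCA in 38 (20.9%), against 13.4% and 14.1%. The AP-1 site TGANTCA was found in 16 (8.79%), against 5.3% and 7.81%, and the full cAMP response element TGACGTCA in 1 (0.549%), against 3.3% and 1.79%. These are matches of letters and not measured binding.

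The repressed-state peaks were narrow and low. Their median width was 860 bp (quartiles 583 and 1370), against 1190 bp over all peaks (quartiles 727 and 2140). Of the 6116 peaks, 6097 passed the filter on low counts. Levels below are in CPM, the usual depth-scaled count unit, with TMM-adjusted library sizes. The tested members had a median mean level of 1.98 CPM (quartiles 1.34 and 3.43), against 3.26 CPM over all tested peaks (quartiles 1.85 and 6.77). Per kb of peak, the median level was 2.42 CPM in members and 2.82 CPM in all tested peaks. The highest member reached 54.1 CPM, the highest of all peaks 1270 CPM. The width limit cut no natural gap: just inside it stood a Spsb1 peak of 9808 bp at 2.16 CPM per kb and a Foxo1 peak of 9983 bp at 3.10 CPM per kb, and just outside it an Emx2 peak of 10253 bp at 4.69 CPM per kb and a Gm29678 peak of 10269 bp at 4.63 CPM per kb.

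By the deposited annotation, 45.2% of members were intergenic, against 30.2% of all peaks. Introns held 47.0%, against 58.1%, and promoters 3.84%, against 5.69%. The share within 10 kb of a start site was alike, 29.5% for members and 31.3% for all peaks. Members stood in clusters along the chromosomes. The nearest neighbouring peak was itself a member for 47.5% of members, against 2.15% of the other peaks. The X chromosome held 4 members among its 2507 peaks (0.16%).

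Gene lists written for this tissue showed which genes the repressed-state peaks stood beside. A peak is called here by the gene named beside it in the file, and nothing shows that it acts on that gene. Among marker genes of microglia, the brain's resident macrophages, 29 of 86 peaks (33.7%) were members, and among oligodendrocyte markers, genes of the myelinating cells, 43 of 156 (27.6%). Transcription factors of the Fox, Sox, Pax, Tbx and Gata families had 40 of 165 peaks (24.2%) in the repressed state. Genes of developmental basic helix-loop-helix (bHLH) and zinc finger factors had 50 of 315 (15.9%), and homeobox genes outside the Hox clusters 53 of 338 (15.7%). Pan-neuronal markers had 0 of 202 peaks in this state and CA pyramidal neuron markers 3 of 240 (1.25%). Markers of dentate granule neurons had 85 of 444 (19.1%), of which 35 were named to Prox1, the homeobox factor that defines these neurons. The sort was for NeuN, and no label says that granule neurons were sorted apart from other neurons. Of 39 Hox cluster genes, 1 had a peak at all, and it was not a member.

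**Figure D1:**
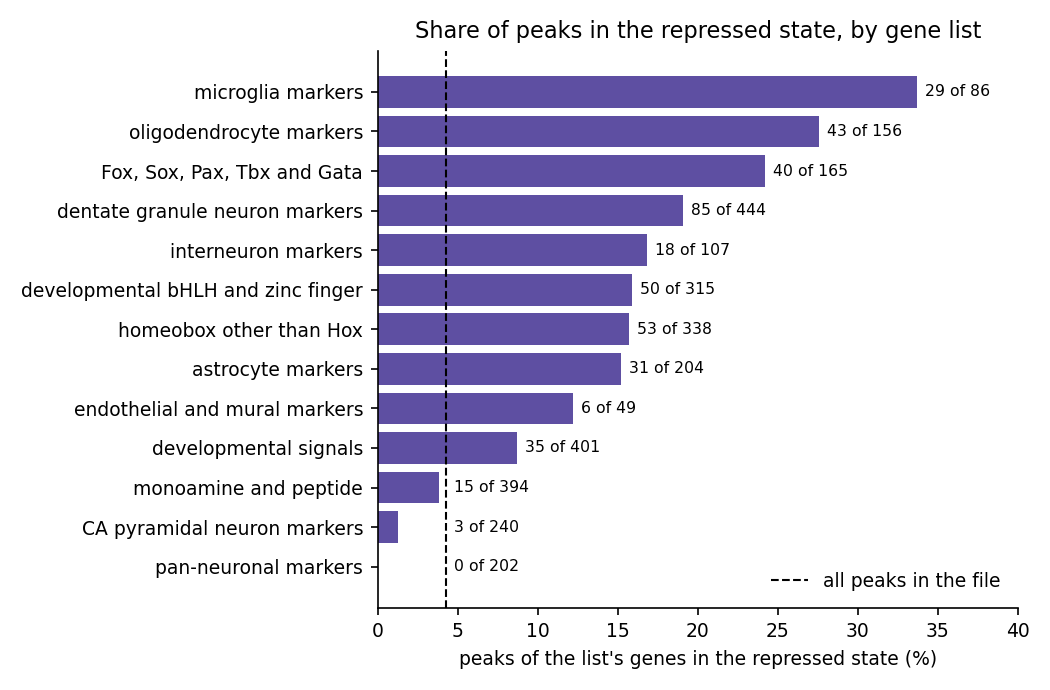
Share of the peaks named to each gene list that lay in the repressed state, in percent, with the number of member peaks and of all peaks of the list at the right; the dashed line is the share over the whole file, 4.24%. Microglia, oligodendrocyte and Fox, Sox, Pax, Tbx and Gata genes stood highest, and pan-neuronal markers had no member.

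Library totals in peaks ran between 10153795 and 14132205 counts in HDACi-CFC, 7222654 and 9666039 for Veh-CFC, 13533876 and 16734757 in HDACi-Context, and 6639158 and 13711438 in Veh-Context. Marker promoters differed in level: the median promoter peak of 16 of 16 dentate granule markers stood at 4.32 CPM per kb and of 11 of 12 pan-neuronal markers at 4.57. Interneuron (6 of 18) and CA pyramidal markers (13 of 16) stood at 4.09 and 2.56. Oligodendrocyte (14 of 16), astrocyte (12 of 14), microglia (10 of 14) and endothelial and mural markers (4 of 14) stood at 2.37, 2.97, 1.92 and 2.58. The ranges overlapped, as pan-neuronal promoters went down to 2.59 and astrocyte promoters reached 7.31. Promoter peaks were lacking at Opalin and Aspa, at Aqp4 and Fgfr3, and at Aif1, C1qa, Trem2 and Itgam among the markers of oligodendrocytes, astrocytes and microglia. Members took 1.88% ± 0.028 of counts in HDACi-CFC, 1.99% ± 0.15 in Veh-CFC, and among unshocked mice 1.89% ± 0.018 in HDACi-Context and 1.94% ± 0.038 in Veh-Context (SD, n = 3 each). Veh-CFC replicate 1 stood apart with 2.17%, above the other 11 libraries. The mean log2 level of members minus that of all other peaks was -0.65 ± 0.022 in HDACi-CFC, -0.62 ± 0.10 in Veh-CFC; without shock it was -0.80 ± 0.021 in HDACi-Context and -0.71 ± 0.010 in Veh-Context (SD, n = 3 each, pseudocount 0.5 CPM). It was -0.50 in Veh-CFC replicate 1, so the counts of calls on Veh-CFC are given below also without that library.

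The question in conditioned mice was what CI-994 did when it preceded shock. Almost none of the repressed-state peaks was called between HDACi-CFC and Veh-CFC at an adjusted p under 0.05 (edgeR's quasi-likelihood test, Benjamini-Hochberg adjustment over all 144014 tested peaks). Of 6097 members, 4 were higher and 9 lower in HDACi-CFC, which is 0.0656% and 0.148%, against 0.483% and 0.435% of all tested peaks. The members' median log2 fold change was -0.05 (quartiles -0.29 and 0.19), against -0.01 over all tested peaks.

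The clearest rises were at Peli2 and Zfp536. The peak at -1779 bp from the start site of Peli2, which encodes a Pellino ubiquitin ligase (chr14:48117535-48120645, mm10), had 14.6, 15.4 and 16.6 CPM in HDACi-CFC, against 10.1, 8.48 and 9.20 CPM in Veh-CFC. All HDACi-CFC libraries stood above all Veh-CFC libraries, and the log2 fold change was 0.75 ± 0.15 (SE, adjusted p = 0.0055). Peaks named for a call in a comparison were picked among those whose groups did not overlap there. Lack of overlap in that comparison thus adds no support, here and below. An intronic Zfp536 peak (chr7:37624549-37632327) had 37.7, 41.2 and 39.2 CPM in HDACi-CFC, against 26.2, 25.1 and 28.9 CPM in Veh-CFC, a log2 fold change of 0.56 ± 0.12 (adjusted p = 0.0086). Another intronic Zfp536 peak moved the other way. It had 2.75, 1.98 and 2.60 CPM in HDACi-CFC, against 6.68, 4.24 and 4.11 CPM in Veh-CFC (chr7:37543584-37544827, log2 fold change -1.01 ± 0.26, adjusted p = 0.041). Peaks named to Uri1, a prefoldin-like protein, and Mir378b were the other 2 that rose.

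Among the 9 that fell was a peak in intron 2 of Hapln1, a link protein of the extracellular matrix around neurons. It had 3.84, 2.91 and 3.19 CPM in HDACi-CFC, against 5.65, 5.62 and 6.65 CPM in Veh-CFC (chr13:89584425-89585935, log2 fold change -0.83 ± 0.21, adjusted p = 0.041). The same peak was low with drug in the unshocked mice, with 3.82, 3.83 and 2.92 CPM in HDACi-Context against 7.02, 5.45 and 6.76 CPM in Veh-Context (log2 fold change -0.88 ± 0.19, adjusted p = 0.0017). Drug and vehicle libraries did not overlap in either session, which the choice of the Hapln1 peak required only after CFC. A peak in Ano2, a calcium-activated chloride channel, had 0.724, 0.624 and 0.756 CPM in HDACi-CFC and 2.06, 1.70 and 2.97 CPM in Veh-CFC (log2 fold change -1.63 ± 0.39, adjusted p = 0.023). Peaks named to Mcfd2, Tars and Kcnd3 fell by 1.46 ± 0.35, 1.17 ± 0.27 and 1.09 ± 0.27 on the log2 scale.

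These counts were small and turned on single libraries. Without Veh-CFC replicate 1, 2 or 3, the counts of members higher and lower were 16 and 18, 0 and 4, or 4 and 1. Without HDACi-CFC replicate 1, 2 or 3 they were 2 and 1, 1 and 1, or 0 and 0, and without HDACi-Context replicate 1, which enters through the shared estimate of spread, 8 and 14. Of the 10 named calls, 8 held without Veh-CFC replicate 1 and 0 under every alternative tried, and normalisation to peaks of the control state, chosen after seeing the data, gave 13 and 7; library totals gave 3 and 14.

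In unshocked mice the drug's calls at repressed-state peaks went mainly down. Of 6097 members, 63 were higher and 348 lower in HDACi-Context than in Veh-Context, 1.03% and 5.71%, against 2.73% and 5.85% of all tested peaks. The median log2 fold change was -0.12 in members and -0.01 over all tested peaks. The share that fell was thus near the background, and the share that rose was below it. Among strong-promoter peaks 3912 (25.1%) were lower, with a median log2 fold change of -0.39. Lower members were wide, with a median of 1550 bp, and 45.1% of them lay within 10 kb of a start site. Higher members had a median width of 1680 bp, and 14.3% of them lay that close.

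The tallest repressed-state peaks were among those that fell. The highest of all, in intron 4 of Zfp536 (chr7:37560094-37569147), had 35.5, 34.3 and 32.1 CPM in HDACi-Context and 51.4, 49.9 and 60.8 CPM in Veh-Context, a log2 fold change of -0.68 ± 0.11 (adjusted p = 7.7e-05). The peak in intron 1 of Tspan18, a tetraspanin of the cell membrane (chr2:93326341-93333591), had 34.4, 31 and 26.6 CPM in HDACi-Context and 40.6, 46.8 and 49.9 CPM in Veh-Context (log2 fold change -0.58 ± 0.11, adjusted p = 0.00069). At both loci every HDACi-Context library was below every Veh-Context library. The Fga peak, at the fibrinogen alpha chain gene, and the Chd7 peak, at a chromatin remodeller gene, fell by 0.41 ± 0.13 (adjusted p = 0.038) and 0.35 ± 0.11 (adjusted p = 0.044) on the log2 scale. Others among the 10 highest, at Tmem108, 4932413F04Rik, Slc1a3, Gm29811 and Foxo1, were not called, nor was the other Tspan18 peak among them. The tallest Tmem108 peak had 43.9, 51.3 and 48.2 CPM in HDACi-Context and 46.5, 40.6 and 46.2 CPM in Veh-Context, so its groups overlapped.

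The 6 largest fitted drops were at low peaks named to Shh, Tbx4, Tmem63a, Nkx1-1, Nes and Smim38. The peak at -11996 bp from Shh, the sonic hedgehog ligand, had 0.139, 0.116 and 0.204 CPM in HDACi-Context and 1.19, 2.06 and 0.588 CPM in Veh-Context (chr5:28478938-28479256, log2 fold change -2.88 ± 0.67, adjusted p = 0.0034). A peak near Tbx4, a T-box factor of limb development, had 0.278, 0.058 and 0.340 CPM in HDACi-Context and 0.971, 1.18 and 1.18 CPM in Veh-Context (log2 fold change -2.28 ± 0.59, adjusted p = 0.0085). A peak near Nes, which encodes nestin, the intermediate filament of neural progenitors, had 0.278, 0.116 and 0.136 CPM in HDACi-Context and 0.448, 1.03 and 0.809 CPM in Veh-Context (chr3:87982425-87983325, log2 fold change -1.99 ± 0.59, adjusted p = 0.025). None of these 3 peaks had overlapping groups, as their choice required, and each rested on few reads per HDACi-Context library.

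Fewer peaks rose with drug in unshocked mice, and 3 genes, Tspan18 among them, had both a higher and a lower member. A peak in intron 4 of Lemd1 had 4.59, 4.64 and 3.94 CPM in HDACi-Context and 2.24, 2.06 and 1.91 CPM in Veh-Context (chr1:132235100-132236286, log2 fold change 1.08 ± 0.23, adjusted p = 0.0015). The peak in D030068K23Rik, a long non-coding transcript, had 4.59, 6.61 and 5.31 CPM in HDACi-Context and 2.84, 2.06 and 2.94 CPM in Veh-Context (log2 fold change 1.03 ± 0.22, adjusted p = 0.0016). Both stood clear of the vehicle libraries, as their choice required. Peaks near Fat4, an atypical cadherin, near Arf6, a small GTPase of membrane traffic, in Cd101, an immunoglobulin-family receptor, and near Gm20757 rose by 1.04 to 1.18 on the log2 scale.

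Drops in 3 of the lists stood above the share over all tested peaks, 2.73% higher and 5.85% lower. Of the 43 members named to oligodendrocyte markers, 0 rose and 8 fell in HDACi-Context, and their median log2 fold change was -0.54. Of the 40 members of Fox, Sox, Pax, Tbx and Gata genes, 0 rose and 8 fell (median -0.58), and of the 29 members of microglia markers 1 rose and 5 fell (median -0.36). The 8, 8 and 5 lower peaks were named to 6, 6 and 4 genes. The lower shares were 18.6%, 20.0% and 17.2%. In the other lists they lay near or below 5.85%. Homeobox genes had 1 and 2 of 53, bHLH and zinc finger genes 2 and 3 of 50, developmental signals 0 and 1 of 35, astrocyte markers 0 and 2 of 31, interneuron markers 1 and 0 of 18, and dentate granule markers 4 and 5 of 85. Olig1 and Olig2 belong to 2 of these lists, as do Sox10, Sall1 and Dlx2. Over all tested peaks the median was -0.01. These counts turned on single libraries. Without HDACi-Context replicate 1, 2 or 3, the lower oligodendrocyte members numbered 8, 3 or 3, those of microglia markers 7, 2 or 3, and those of Fox, Sox, Pax, Tbx and Gata genes 12, 4 or 6. Without Veh-Context replicate 1, 2 or 3 they numbered 3, 5 or 4 for oligodendrocytes, 1, 2 or 3 for microglia and 7, 7 or 1 for Fox, Sox, Pax, Tbx and Gata genes.

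Named examples show the sizes. The largest Foxd1 peak, at a forkhead factor, had 9.32, 9.16 and 8.71 CPM in HDACi-Context and 13.8, 12.2 and 14.5 CPM in Veh-Context (log2 fold change -0.59 ± 0.14, adjusted p = 0.0050). The Lhx9 peak, which holds the promoter printed above (chr1:138836668-138845020), had 17.9, 17.7 and 17.5 CPM in HDACi-Context and 22.7, 28.9 and 26.5 CPM in Veh-Context (log2 fold change -0.55 ± 0.13, adjusted p = 0.0048). In both peaks the groups were apart. Peaks at Olig2, Mag, Cx3cr1 and Pax6, chosen after their values were seen, fell by 1.05 ± 0.26 (adjusted p = 0.0082), 1.06 ± 0.29 (adjusted p = 0.013), 1.04 ± 0.23 (adjusted p = 0.0025) and 0.66 ± 0.18 (adjusted p = 0.015) on the log2 scale. Olig2 and Pax6 encode lineage transcription factors, Mag a myelin glycoprotein and Cx3cr1 the microglial fractalkine receptor.

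In HDACi-Context over Veh-Context, 2.73% of all tested peaks were higher and 5.85% lower. Oligodendrocyte list peaks outside the repressed state also had more drops than rises in HDACi-Context. Of the 113 such oligodendrocyte peaks, 0 were higher and 11 lower (median log2 fold change -0.16), and they summed to 832 to 901 CPM in HDACi-Context and 991 to 1090 CPM in Veh-Context. The 43 members summed to 56 to 67.2 CPM in HDACi-Context and 87.4 to 93.6 CPM in Veh-Context. Microglia list peaks outside the state were higher in 0 and lower in 5 of 57, with sums of 221 to 226 CPM in HDACi-Context and 234 to 250 CPM in Veh-Context. Astrocyte list peaks outside it were higher in 3 and lower in 8 of 173 (median -0.01), and their sums overlapped, with 1230 to 1400 CPM in HDACi-Context and 1320 to 1450 CPM in Veh-Context. Endothelial and mural peaks outside it were higher in 0 and lower in 1 of 43. Pan-neuronal list peaks were higher in 31 and lower in 11 of 202 and summed to 2570 to 2700 CPM in HDACi-Context and 2620 to 2850 CPM in Veh-Context. In bulk nuclei, fewer cells of a type and less acetylation per cell cannot be told apart, and the part of glial nuclei in these drops was not tested.

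Calls in unshocked mice depended on the libraries: without HDACi-Context replicate 1, 2 or 3 the counts were 102 higher and 504 lower, 15 and 130, or 22 and 208, and without Veh-Context replicate 1 or 3 they were 29 and 264, or 12 and 148. Scaling by library totals gave 99 higher and 258 lower, and normalisation to control-state peaks 34 and 451. Of 18 named calls 6 held under every alternative, those of Zfp536, Tspan18, Lhx9, Shh, Lemd1 and D030068K23Rik.

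**Figure D2:**
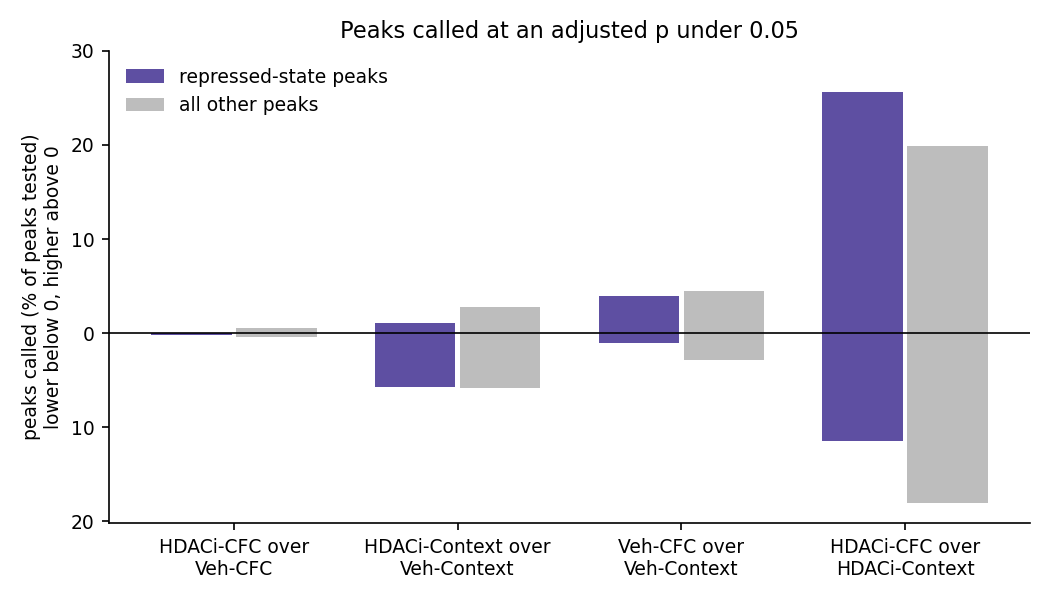
Share of tested peaks called at an adjusted p under 0.05, in percent, higher above 0 and lower below 0, for the repressed-state peaks and all other peaks in 4 comparisons. In repressed-state peaks HDACi-CFC over Veh-CFC gave the fewest calls, 0.0656% higher and 0.148% lower. HDACi-CFC over HDACi-Context gave the most, 25.6% higher and 11.4% lower.

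Averaged over both sessions, the drug left 67 members higher and 351 lower (1.1% and 5.76%, against 3.52% and 5.81% of all tested peaks). The median log2 fold change was -0.09 in members and -0.02 over all peaks. Only 4 members fell in both sessions taken apart, which is 44.4% of those lower in HDACi-CFC and 1.15% of those lower in HDACi-Context. None rose in both, and none moved in opposite directions.

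The named peaks below were called on the average of the sessions. The peaks at Ccnd1, Dock10, Tshz3, Lama4, Prok1, Pcca and Prr5 passed in neither session taken apart, and those at Gjb6, Klf4, Arf6, Aif1l and Nol4l passed in the unshocked mice. The peak at -3887 bp from Ccnd1, cyclin D1, had 1.23, 0.832 and 1.51 CPM in HDACi-CFC and 0.642, 0.530 and 0.425 CPM in Veh-CFC, and 1.18, 1.39 and 1.36 CPM in HDACi-Context against 0.448, 0.442 and 0.588 CPM in Veh-Context (log2 fold change over both 1.27 ± 0.34, adjusted p = 0.012, against 0.33 after CFC and 0.053 without shock). The peak in intron 1 of Gjb6, the astrocyte gap junction protein connexin 30, had 0.724, 0.728 and 1.34 CPM in HDACi-CFC and 1.67, 2.12 and 2.12 CPM in Veh-CFC, and 0.348, 0.522 and 0.340 CPM in HDACi-Context against 0.971, 1.62 and 1.03 CPM in Veh-Context (log2 fold change over both -1.27 ± 0.32, adjusted p = 0.0059). In both sessions the drug libraries of Ccnd1 were all above, and those of Gjb6 all below, the vehicle libraries, as the choice of these peaks required. A peak at -538387 bp from Klf4, a Kruppel-like factor, rose by 0.81 ± 0.19 (adjusted p = 0.0032) and one in intron 1 of Dock10, a guanine exchange factor listed as a granule neuron marker, by 0.78 ± 0.19 (adjusted p = 0.0053) on the log2 scale. Peaks near Arf6, near Tshz3 and in Lama4 also rose, and peaks in Aif1l and near Prok1, Nol4l, Pcca and Prr5 fell by 1.12 to 1.43.

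The drug-wide counts fell to 39 higher and 235 lower without Veh-Context replicate 3, to 40 and 221 without HDACi-Context replicate 2 and to 40 and 262 without HDACi-CFC replicate 3.

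Shock was first compared in mice given vehicle. Here the repressed-state calls went mainly up: 238 members were higher and 64 lower in Veh-CFC than in Veh-Context (3.9% and 1.05%, against 4.41% and 2.74% of all tested peaks). The share that rose was thus near the background, and the share that fell was below it. The median log2 fold change was 0.11 in members and -0.004 over all tested peaks. Of the higher members 64.7% were intronic and 62.2% lay within 10 kb of a start site, against 25.0% and 9.38% of the lower ones. Without Veh-CFC replicate 1, 75.0% of the 24 higher members were intronic and 87.5% lay that close. Strong-promoter peaks were called higher in 12.6% and had a median of 0.25.

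Most named rises were at low, narrow peaks. The peak near Nkd1, an antagonist of Wnt signalling, had 2.44, 0.636 and 0.991 CPM in Veh-CFC and 0.224, 0.294 and 0.368 CPM in Veh-Context (chr8:88499670-88500090, log2 fold change 2.13 ± 0.61, adjusted p = 0.027). The peak near Mcfd2, a cargo receptor subunit, had 3.21, 2.76 and 3.26 CPM in Veh-CFC and 1.34, 0.736 and 0.809 CPM in Veh-Context (log2 fold change 1.61 ± 0.36, adjusted p = 0.0058). The Mcfd2 peak was named for its drop in HDACi-CFC against Veh-CFC. Both comparisons share the Veh-CFC libraries, so its rise with shock is not separate evidence. Veh-CFC stood above Veh-Context in every library of the Nkd1 and Mcfd2 peaks, which the choice of the Nkd1 peak required. At Nkd1 the Veh-CFC libraries spread widely. At the tall Lhx9 peak, Veh-CFC had 46.5, 36.7 and 44.3 CPM and Veh-Context 22.7, 28.9 and 26.5 CPM (log2 fold change 0.71 ± 0.13, adjusted p = 0.0011). Peaks in Otub1, a deubiquitinase, Slc12a4, a potassium-chloride cotransporter, and Ctu2, a tRNA-modifying enzyme, and at Endou and Wdfy4 rose by 2.09 to 2.69.

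Among the peaks that fell was one near Gm19303. It had 1.41, 2.97 and 2.69 CPM in Veh-CFC and 5.38, 4.86 and 6.10 CPM in Veh-Context (chr15:51198416-51199959, log2 fold change -1.21 ± 0.25, adjusted p = 0.0028). With drug it was also lower after shock, with 2.46, 2.39 and 3.19 CPM in HDACi-CFC and 5.21, 4.75 and 6.19 CPM in HDACi-Context (log2 fold change -0.995 ± 0.22, adjusted p = 0.00038). The shocked and unshocked libraries did not overlap with either injection, which the choice of the peak required only with vehicle. Peaks near Mtx2, Ankrd55, 4930405L22Rik and Smim23 and one in 1700120E14Rik fell by 1.24 to 1.65 on the log2 scale.

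Set against 4.41% higher and 2.74% lower over all tested peaks, the lists gave 7 higher and 0 lower of 43 oligodendrocyte members (median log2 fold change 0.54), 4 and 0 of 29 microglia members (median 0.42) and 5 and 0 of 40 members of Fox, Sox, Pax, Tbx and Gata genes (median 0.36). Among bHLH and zinc finger members 3 were higher and 0 lower of 50, among homeobox members 2 and 1 of 53, and among dentate granule members 0 and 0 of 85 (median 0.03). The first 3 lists had 16.3%, 13.8% and 12.5% higher, whereas bHLH and zinc finger members, with 6.0%, and homeobox members, with 3.77%, lay near the share over all peaks. The 7 oligodendrocyte peaks were named to 5 genes and the 4 microglia peaks to 4. The 5 peaks of Fox, Sox, Pax, Tbx and Gata genes were named to only 2, so they do not show a rise across these families. Oligodendrocyte list peaks outside the repressed state were higher in 10 and lower in 3 of 113. The summed level of the oligodendrocyte members was 162, 108 and 115 CPM in Veh-CFC, the first of these in replicate 1, and 87.4 to 93.6 CPM in Veh-Context. Without Veh-CFC replicate 1 the higher members numbered 1 of 43 for oligodendrocytes, 0 of 29 for microglia and 0 of 40 for Fox, Sox, Pax, Tbx and Gata genes, with medians of 0.34, 0.23 and 0.17. Without Veh-Context replicate 1 they numbered 3, 2 and 2.

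The counts rested on Veh-CFC replicate 1. Without it 24 members were higher and 4 lower, and the median log2 fold change was 0.04. Without Veh-CFC replicate 3 the counts were 434 and 101, without Veh-CFC replicate 2 40 were lower, without HDACi-Context replicate 1 345 and 96, and without Veh-Context replicate 1 or 2 they were 52 and 10, or 142 and 31. Scaling by library totals gave 196 higher and 90 lower, and normalisation to control-state peaks 307 and 28. Of 13 named calls 1, that of Lhx9, held without Veh-CFC replicate 1 and under every alternative. Without that library the log2 fold change was 0.64 ± 0.13 at Lhx9 (adjusted p = 0.0075) and 1.39 ± 0.71 at Nkd1 (adjusted p = 0.34). At Mcfd2, which is not among the 13 calls, it was then 1.58 ± 0.41 (adjusted p = 0.039), and at Gm19303 -0.95 ± 0.26 (adjusted p = 0.050, not called).

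Between shocked and unshocked mice given CI-994, calls at repressed-state peaks went both ways, and mainly up. Of 6097 members, 1560 were higher and 697 lower in HDACi-CFC than in HDACi-Context (25.6% and 11.4%, against 20.2% and 17.8% of all tested peaks). The median log2 fold change was 0.17 in members (quartiles -0.34 and 0.82) and -0.05 over all tested peaks. Strong-promoter peaks were called higher in 44.9% and lower in 1.63% (median 0.45), active enhancers in 28.7% and 12.1% (median 0.11), primed enhancers in 10.9% and 20.6% (median -0.19) and control-state peaks in 10.3% and 27.1% (median -0.29). Repressed-state peaks thus lay between the active enhancers and the promoters by median, with a wider spread between quartiles.

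**Figure D3:**
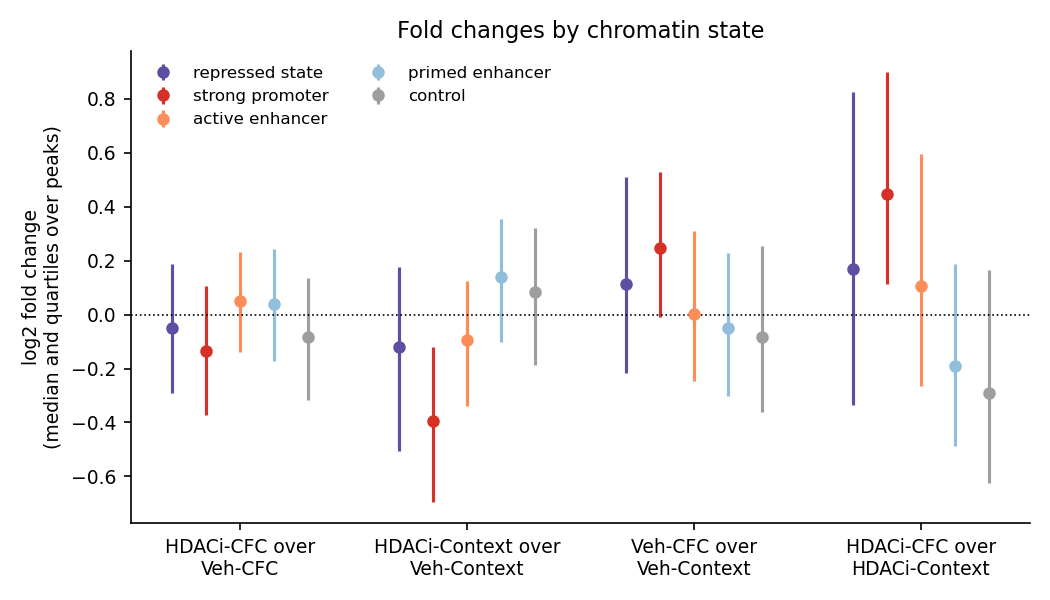
Log2 fold change by chromatin state in 4 comparisons, with the median over tested peaks as the point and the quartiles as the bar. In HDACi-CFC over HDACi-Context the medians were 0.17 for the repressed state, 0.45 for strong promoters and -0.29 for the control state.

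Where a peak stood went with its direction. Members at annotated promoters were higher in 84 and lower in 7 of 235 (median log2 fold change 0.46), those in exons in 30 and 2 of 53, and those in introns in 864 and 233 of 2870 (median 0.31). Intergenic members were higher in 514 and lower in 448 of 2756 (median -0.03). Members at promoters were thus higher in 35.7% and lower in 2.98%, against 34.3% and 2.62% of other peaks under 10000 bp there. In exons the shares were 56.6% and 3.77%, against 49.8% and 5.62%. In introns they were 30.1% and 8.12%, against 18.9% and 16.7%, and between genes 18.7% and 16.3%, against 12.3% and 26.8%. Other peaks thus followed the same order of places, and the pattern is not particular to members. Of the higher members 46.5% lay within 10 kb of a start site, against 12.2% of the lower and 25.8% of those not called. Higher members were also the lower in level, with a median of 2.05 CPM per kb against 2.70 in members that fell and 2.50 in members not called. The higher members were named to 942 genes and the lower ones to 478, with 79 genes in both sets.

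Of the 10 tallest members 3 were called, all of them higher, the tallest at Zfp536 and both at Tspan18. The other 7, at Tmem108, Foxo1, Chd7, 4932413F04Rik, Fga, Gm29811 and Slc1a3, were not called, with adjusted p between 0.071 and 0.8. At the highest Zfp536 peak, HDACi-CFC had 53.1, 65.3 and 66.0 CPM and HDACi-Context 35.5, 34.3 and 32.1 CPM (log2 fold change 0.86 ± 0.11, adjusted p = 1.4e-07). At the highest Tspan18 peak, HDACi-CFC had 48.8, 55.0 and 53.9 CPM and HDACi-Context 34.4, 31 and 26.6 CPM (log2 fold change 0.78 ± 0.12, adjusted p = 9.9e-07). At Lhx9, which is not among the 10 and is given for its promoter printed above, HDACi-CFC had 27.4, 35.2 and 39.1 CPM and HDACi-Context 17.9, 17.7 and 17.5 CPM (log2 fold change 0.93 ± 0.13, adjusted p = 2.6e-07). In none of these 3 peaks did a shocked library reach down to an unshocked one, whereas at Tmem108 the groups overlapped, with 43.4, 54.6 and 54.9 CPM in HDACi-CFC and 43.9, 51.3 and 48.2 CPM in HDACi-Context. These are also the peaks that were lower in HDACi-Context than in Veh-Context, and both comparisons share the 3 HDACi-Context libraries, so they are not separate evidence.

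**Figure D4:**
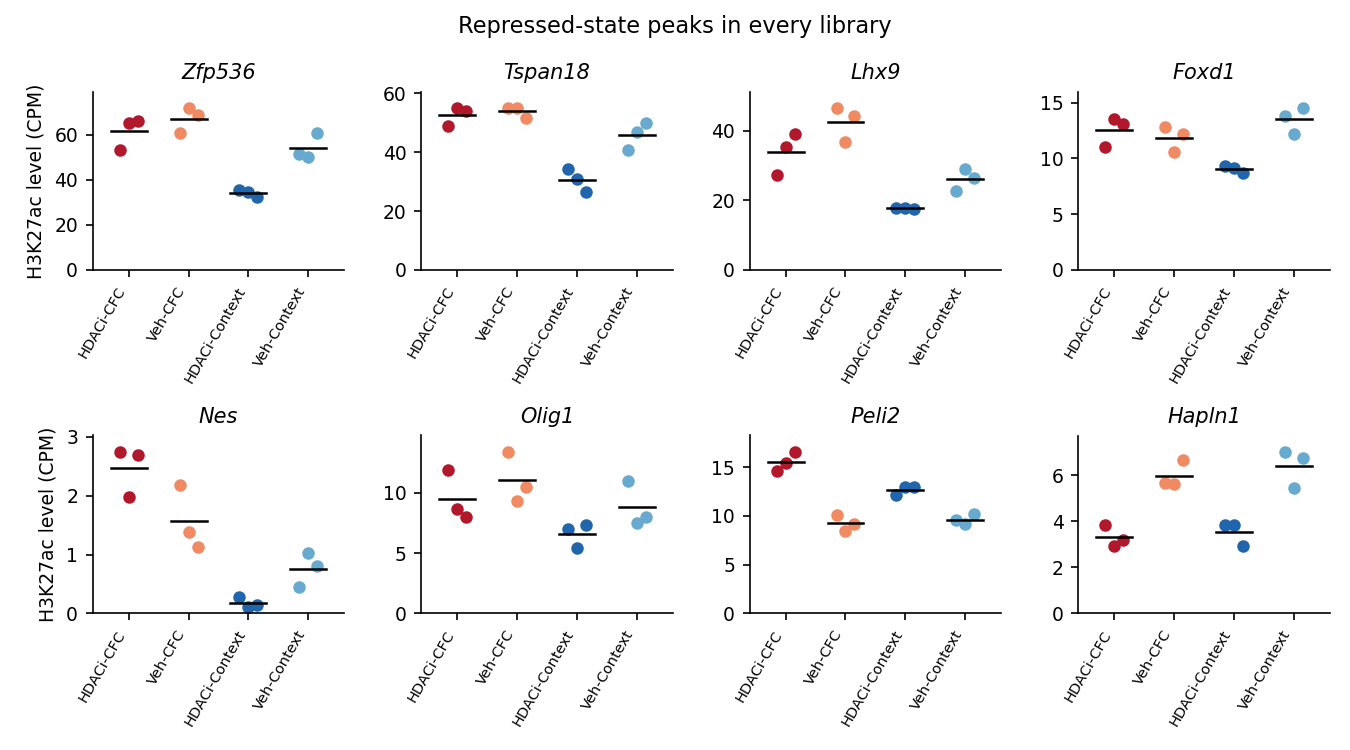
H3K27ac level in CPM of 8 repressed-state peaks in every library; each point is a library and each line the mean of 3. At Zfp536, Tspan18 and Lhx9 the HDACi-Context libraries stand lowest, at Peli2 both drug groups stand highest and at Hapln1 both drug groups stand lowest.

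The 6 largest fitted rises were at low peaks named to Olig2, Cdc42ep2, Cxcr4, Zc3h12a, Cfap77 and Otub1, and the Nes peak came close to them. The Nes peak had 2.75, 1.98 and 2.69 CPM in HDACi-CFC and 0.278, 0.116 and 0.136 CPM in HDACi-Context (log2 fold change 3.77 ± 0.48, adjusted p = 5.6e-08). It was named for its drop in HDACi-Context against Veh-Context. Both comparisons share the HDACi-Context libraries, so the rise at Nes is not separate evidence. The peak at -1843 bp from Olig2 was at the file's smallest count, 1, in all 3 HDACi-Context libraries. It held 50 counts in HDACi-CFC and 3 in HDACi-Context, a ratio of 21.9 after library size with a 95% counting interval of 7.06 to 110. Peaks near Cdc42ep2, an effector of Cdc42, near Cxcr4, a chemokine receptor, and in Zc3h12a, an RNase of immune genes, and Cfap77 were also at the smallest count there, with 44, 38, 37 and 37 counts in HDACi-CFC against 3 each. Their ratios were 19.2 (6.17 to 96.9), 16.6 (5.27 to 84.1), 16.2 (5.12 to 82) and 16.2 (5.12 to 82), intervals that cover counting error only.

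The 6 largest fitted drops were at low peaks as well. The peak near Lrrc55, an auxiliary subunit of BK potassium channels, had 0.869, 0.832 and 1.18 CPM in HDACi-CFC and 2.36, 3.42 and 3.81 CPM in HDACi-Context (log2 fold change -1.73 ± 0.31, adjusted p = 2.4e-05). A peak 87779 bp downstream of the Foxo1 start site had 1.01, 0.728 and 0.588 CPM in HDACi-CFC and 2.22, 1.62 and 3.74 CPM in HDACi-Context (log2 fold change -1.66 ± 0.37, adjusted p = 0.00057). The groups were apart at both, as their choice required. Peaks near Gm4827, Nrp2, a semaphorin receptor, Auts2, a neuronal chromatin regulator, and Antxrl fell by 1.65 to 2.03. The Antxrl peak lay at -3493 bp from its start site and the other 5 farther than 10 kb from theirs.

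Most oligodendrocyte members rose. Of the 43, 26 were higher and 1 lower, with a median log2 fold change of 1.03, and 8 of the 10 genes with a member had one that rose. Of the 40 Fox, Sox, Pax, Tbx and Gata members, 27 were higher and 2 lower (median 1.09), over 13 of 19 genes. Of the 29 microglia members, 14 were higher and 3 lower (median 0.75), and all 7 genes had one that rose, though 12 of these peaks were named to Sall1, where members moved both ways. Over all tested peaks 20.2% were higher and the median was -0.05. Without 1 library of either group at a time, 22 to 26 oligodendrocyte, 20 to 26 Fox, Sox, Pax, Tbx and Gata and 11 to 15 microglia members were higher. The drops of these 3 lists in HDACi-Context over Veh-Context used the same HDACi-Context libraries. Their rises here are thus not separate evidence.

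Single peaks of these lists, chosen after their values were seen, give the scale. Sox10, the master factor of the oligodendrocyte lineage, had at its intronic peak (chr15:79159095-79161267) 8.62, 6.14 and 6.47 CPM in HDACi-CFC and 2.09, 0.927 and 0.544 CPM in HDACi-Context (log2 fold change 2.60 ± 0.36, adjusted p = 2.3e-05). At Mag, HDACi-CFC had 5.72, 5.30 and 5.46 CPM and HDACi-Context 1.67, 1.33 and 0.884 CPM (log2 fold change 2.08 ± 0.26, adjusted p = 2.4e-08). At the complement gene C1qc, HDACi-CFC had 3.91, 5.10 and 5.38 CPM and HDACi-Context 1.39, 0.869 and 1.16 CPM (log2 fold change 2.07 ± 0.32, adjusted p = 8.6e-06). At the stem cell factor Sox2 the tallest list peak shown (chr3:34655957-34659681) had 13.2, 11 and 14.4 CPM in HDACi-CFC and 5.21, 5.68 and 7.35 CPM in HDACi-Context (log2 fold change 1.09 ± 0.17, adjusted p = 3.5e-06). Groups did not overlap at any of these 4. Mag was also given above for a drop in HDACi-Context over Veh-Context, which shares the HDACi-Context libraries, so its rise is not separate evidence.

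The other lists moved less or in both directions. Over all tested peaks 20.2% were higher and 17.8% lower. Of developmental signal, astrocyte and interneuron members, 25.7%, 22.6% and 22.2% were higher, near that share. Homeobox members had 32.1% higher, bHLH and zinc finger members 42.0% and dentate granule members 11.8%. Homeobox members were higher in 17 and lower in 6 of 53 (median 0.50), bHLH and zinc finger members in 21 and 5 of 50 (median 0.47), and developmental signals in 9 and 1 of 35 (median 0.43). Astrocyte members were higher in 7 and lower in 2 of 31 (median 0.21), although the tallest, that of Slc1a3, was not called, with a log2 fold change of 0.21 ± 0.11. Dentate granule members were higher in 10 and lower in 12 of 85 (median -0.09) and interneuron members in 4 and 4 of 18 (median -0.08). Monoamine and peptide genes had 2 and 2 of 15, endothelial and mural markers 1 and 1 of 6, and CA pyramidal markers 1 and 0 of 3. The tallest members of several lists were not called in any comparison: those of Gdf10, a growth factor of the TGF-beta family, Hdc, the histamine-making enzyme, Stxbp6, a syntaxin-binding protein, Iyd, C1qa and Pecam1. The tallest Olig1 member rose by 0.55 ± 0.17 (adjusted p = 0.011), a call lost with library totals and without HDACi-Context replicate 2 or HDACi-CFC replicate 1.

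The counts that follow stand against 20.2% higher and 17.8% lower over all tested peaks. Outside the repressed state, oligodendrocyte peaks also went mainly up, and in the other glial lists rises and drops were close in number. Of the 113 oligodendrocyte peaks outside it, 42 were higher and 6 lower (median log2 fold change 0.30), and they summed to 1210 to 1240 CPM in HDACi-CFC and 832 to 901 CPM in HDACi-Context. The 43 members summed to 108 to 139 CPM in HDACi-CFC and 56 to 67.2 CPM in HDACi-Context. The HDACi-Context sums are those already set against Veh-Context above. Microglia peaks outside the state were higher in 11 and lower in 12 of 57 (median 0.06), with sums of 211 to 216 CPM in HDACi-CFC and 221 to 226 CPM in HDACi-Context, whereas the 29 members summed to 75.9 to 81.2 CPM and 56.4 to 60.8 CPM. Astrocyte peaks outside it were higher in 27 and lower in 21 of 173 (median -0.10), and their sums overlapped, with 1270 to 1450 CPM in HDACi-CFC and 1230 to 1400 CPM in HDACi-Context. Endothelial and mural peaks outside it were higher in 9 and lower in 8 of 43. Pan-neuronal peaks were higher in 43 and lower in 80 of 202, yet their sums were 3240 to 3370 CPM in HDACi-CFC and 2570 to 2700 CPM in HDACi-Context, and dentate granule peaks outside it were higher in 16 and lower in 145 of 359. The nuclei had been sorted for NeuN, a gate meant to leave glia out, and the part of glial nuclei in these rises was not tested.

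The balance between rises and drops depended on the scaling. Library totals in place of TMM gave 1309 higher and 1002 lower members with medians of 0.04 in members and -0.18 over all tested peaks, and normalisation to control-state peaks gave 2092 and 240 with medians of 0.42 and 0.20, so members stood above the median of all peaks under each. The count of lower members was 422 without HDACi-Context replicate 2, 455 without HDACi-Context replicate 3 and 404 without HDACi-CFC replicate 1. Of 18 named calls 17 held under every alternative.

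The 2 shock comparisons share no library. Both used the spread per peak estimated from all 12 libraries, so they are not fully separate. Of the members higher after shock, 212 were so with both injections, which is 89.1% of those higher in Veh-CFC over Veh-Context and 13.6% of those higher in HDACi-CFC over HDACi-Context. Of the lower ones 45 were shared (70.3% and 6.46%), and no member was called in opposite directions. Among all tested members 25.6% were higher and 11.4% lower in HDACi-CFC over HDACi-Context. The same overlap was not counted over all tested peaks. The overlap followed the count with vehicle: without Veh-CFC replicate 1 the shared higher members numbered 23 (95.8% of 24) and the shared lower ones 3. Without Veh-Context replicate 1 they numbered 47 (90.4% of 52) and 10, without Veh-Context replicate 2 127 and 27, without Veh-CFC replicate 2 178 and 29, and without Veh-CFC replicate 3 370 and 70. Whether shock acted differently with drug was tested by the interaction of drug and session. At an adjusted p under 0.05 edgeR called 0 members higher and 0 lower (0.034% and 0.000694% of all tested peaks), DESeq2 called 6 and 0, and at an unadjusted p under 0.05 edgeR had 458 higher and 184 lower (7.4% and 4.07% of all tested peaks). The median interaction was 0.09 on the log2 scale in members and 0.01 over all tested peaks, and normalisation to control-state peaks gave 37 higher. Without Veh-CFC replicate 1 the interaction had 92 members higher and 7 lower, without HDACi-Context replicate 1 82 and 10, and without Veh-Context replicate 1 17 and 0.

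Repressed-state peaks gathered at a few loci, chosen here by having at least 15 members, a minimum set after seeing the file. Zfp536 held 91 of its 109 peaks in this state, over 555585 bp of chromosome 7. Its members summed to 527, 576 and 569 CPM in HDACi-CFC, 536, 524 and 517 CPM in Veh-CFC, 449, 477 and 452 CPM in HDACi-Context, and 467, 482 and 498 CPM in Veh-Context. Shocked libraries were above unshocked ones with either injection. In HDACi-CFC over HDACi-Context 22 of its members were higher and 5 lower, and in HDACi-Context over Veh-Context 0 and 5. These are 24.2% and 5.49%, and 0% and 5.49%, against 20.2% and 17.8%, and 2.73% and 5.85%, of all tested peaks. The share higher after shock and the share lower with drug were thus near the background, and neighbouring peaks of the locus were called in both directions. Its promoter peak, with the 22-CpG window printed above, had 20.9, 22.0 and 23.4 CPM in HDACi-CFC and 12.7, 13.0 and 11.2 CPM in HDACi-Context (log2 fold change 0.84 ± 0.13, adjusted p = 2.5e-06).

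**Figure D5:**
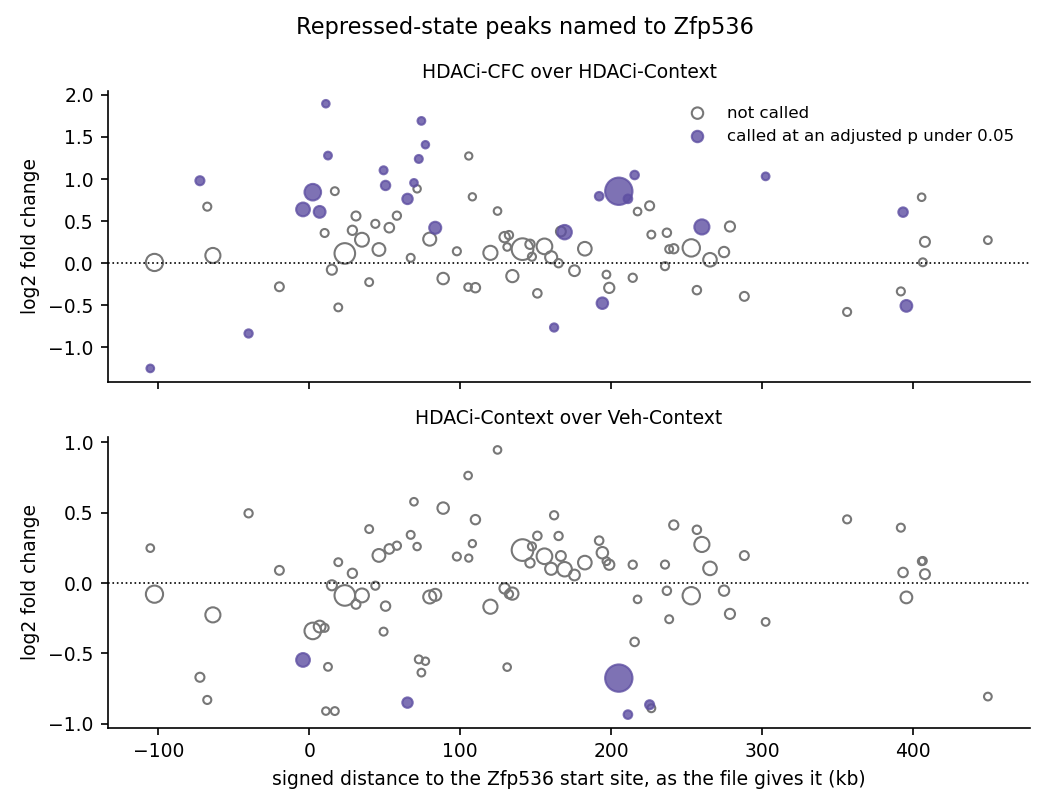
Log2 fold change of the 91 repressed-state peaks named to Zfp536 against their signed distance to its start site in kb, for HDACi-CFC over HDACi-Context (upper) and HDACi-Context over Veh-Context (lower); the area of a point follows its mean level, and filled points were called. In the upper panel 22 were called higher and 5 lower, in the lower panel 0 and 5.

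Counts at other clusters are small and were not tested against each other. Tspan18 (22 of 28 peaks) had 9 members higher and 0 lower in HDACi-CFC over HDACi-Context, Trp53i11 (16 of 30), a gene for a p53-induced membrane protein, 10 and 0, and Tns3 (19 of 57), a tensin of focal adhesions, 8 and 0. These are 40.9%, 62.5% and 42.1% higher, against 20.2% of all tested peaks. The Trp53i11 members (chr2:93201974-93259715) lie directly beside those of Tspan18 (chr2:93261054-93365630), so these 2 genes are not separate regions. Chd7 (48 of 52) had 8 and 2, and its 16.7% higher lay near that share. At Jag1 (15 of 21), a Notch ligand, 1 was higher and 7 lower, and at D930032P07Rik (21 of 57) 0 and 6, or 46.7% and 28.6% lower, against 17.8% of all tested peaks. Around Prox1, 35 of 38 peaks were members, and they summed to 292, 334 and 266 CPM in HDACi-Context and 349, 337 and 363 CPM in Veh-Context, with 0 higher and 4 lower (11.4%). The neighbouring Gm29678 (45 of 47) summed to 232, 260 and 220 CPM in HDACi-Context and 310, 308 and 307 CPM in Veh-Context, with 0 higher and 7 lower (15.6%, against 5.85% of all tested peaks). At Gm29678 each drug library was below each vehicle library of the unshocked mice, and at Prox1 the drug libraries were likewise the lowest. The Prox1 peak with the clearest drop (chr1:190075070-190077329) had 10.4, 13.2 and 10.7 CPM in HDACi-Context and 18.1, 17.8 and 19.0 CPM in Veh-Context (log2 fold change -0.68 ± 0.14, adjusted p = 0.00071).

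Of the 80 protein-coding genes with a promoter window inside a member, 41 had a higher and 1 a lower peak in HDACi-CFC over HDACi-Context, 51.2% and 1.25%, against 20.2% and 17.8% of all tested peaks (median log2 fold change 0.61). The lower one was Rnase1, a secreted ribonuclease, at -0.44 (adjusted p = 0.0063). In Veh-CFC over Veh-Context the counts were 13 and 0 (16.2% and 0%, against 4.41% and 2.74%; median 0.31). Without Veh-CFC replicate 1 they were 2 and 0 (median 0.22), without Veh-Context replicate 1 or 2 they were 7 and 0, or 8 and 0, and without Veh-CFC replicate 3 1 was lower. In HDACi-Context over Veh-Context they were 0 and 18 (0% and 22.5%, against 2.73% and 5.85%; median -0.32). Without Veh-Context replicate 3 there were 4 lower, without HDACi-Context replicate 2 6 and without HDACi-Context replicate 3 11. These drops and the rises in HDACi-CFC over HDACi-Context share the HDACi-Context libraries and are not separate evidence. In HDACi-CFC over Veh-CFC the counts were 0 and 0, and 0 and 1 without Veh-CFC replicate 1. Strong-promoter peaks had 44.9% higher and 1.63% lower in HDACi-CFC over HDACi-Context, and 12.6% and 0.532% in Veh-CFC over Veh-Context. In HDACi-Context over Veh-Context they had 0.199% and 25.1%. The shares of the 80 promoters thus lay near those of strong-promoter peaks and are not particular to the repressed state.

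At Ptgds, Cmtm5 and Emx2 the shocked groups stood highest by their means. The Ptgds peak had 10.0, 7.38 and 8.65 CPM in HDACi-CFC, 14.3, 10.4 and 10.3 CPM in Veh-CFC, 2.57, 2.03 and 2.04 CPM in HDACi-Context, and 5.52, 3.39 and 6.03 CPM in Veh-Context. It rose with shock under drug by a log2 fold change of 1.98 ± 0.20 (adjusted p = 4.9e-10) and under vehicle by 1.16 ± 0.19 (adjusted p = 0.0004; 0.0075 without Veh-CFC replicate 1), and fell by 1.23 ± 0.22 on the log2 scale in HDACi-Context against Veh-Context (adjusted p = 0.00015). The Cmtm5 peak had 5.80, 3.22 and 4.45 CPM in HDACi-CFC, 8.99, 4.98 and 4.11 CPM in Veh-CFC, 1.11, 1.33 and 1.22 CPM in HDACi-Context, and 3.43, 4.56 and 4.04 CPM in Veh-Context. At both genes HDACi-Context was the lowest group, with no overlap with any other. The rise with drug and the drop without shock at Ptgds share the HDACi-Context libraries and are not separate evidence. The Emx2 peak, named in the file to the antisense gene Emx2os, had 34.6, 37.0 and 41.2 CPM in HDACi-CFC, 46.4, 34.1 and 35.7 CPM in Veh-CFC, 26.6, 30.1 and 25.5 CPM in HDACi-Context, and 30.6, 27.2 and 28.5 CPM in Veh-Context. It was higher after shock with drug (log2 fold change 0.45 ± 0.12, adjusted p = 0.0028) and with vehicle (0.42 ± 0.12, adjusted p = 0.031), the second a call lost without Veh-CFC replicate 1 (0.27 ± 0.12, adjusted p = 0.28) or any 1 Veh-Context library (adjusted p 0.069 to 0.094). The Slc1a3 peak, by contrast, was called in no comparison, and its group means lay between 31.3 ± 3.3 CPM in Veh-Context and 37.3 ± 0.83 CPM in Veh-CFC (SD, n = 3 each).

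Start sites or hairpins of 7 microRNA genes lay inside members: Mir7688, Mir6917, Mir7239, Mir759, Mir7001, Mir1897 and Mir7243. The Mir1897 peak, which lies near Sox2, is shown because its groups did not overlap in 3 comparisons; it was chosen after its values were seen. The mature sequence is from RefSeq (GRCm38.p6), and its seed, bases 2 to 8, is in capitals.
mmu-miR-1897-3p (chr3:34638511-34638532, plus strand): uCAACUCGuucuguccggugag

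The Mir1897 peak (chr3:34636776-34640660) had 13.0, 9.36 and 9.24 CPM in HDACi-CFC and 5.42, 5.27 and 5.17 CPM in HDACi-Context (log2 fold change 1.01 ± 0.17, adjusted p = 7.2e-06). In mice given vehicle it had 18.0, 14.8 and 11.6 CPM in Veh-CFC and 9.93, 10.3 and 10.3 CPM in Veh-Context (log2 fold change 0.55 ± 0.16, adjusted p = 0.030), a call lost without Veh-CFC replicate 1 (0.39 ± 0.17, adjusted p = 0.26) and also without Veh-CFC replicate 2 (adjusted p = 0.074) or any 1 Veh-Context library (adjusted p 0.06 to 0.12). Shocked libraries stood above unshocked ones with either injection, and HDACi-Context was below Veh-Context in every library (log2 fold change -0.94 ± 0.17, adjusted p = 0.00016). This drop and the rise with drug share the HDACi-Context libraries and are not separate evidence. Acetylation at the gene says nothing here of the amount of the microRNA.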

How the data were processed

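The authors deposited whole-number read counts of 144154 peaks; the 12 count columns carry a treatment and a replicate number and were taken as the H3K27ac libraries. The 12 input samples were not analysed here. The smallest count was 1, held by 3620 cells, so empty cells may have been set to 1. Per the file headers, each peak carries a gene, an annotation, a chromatin state and an undescribed percent. The percent was 100 for 4230 members, and it chose nothing. The tools listed in the submitters' processing notes, with no settings, are HOMER 4.11, DESeq2 1.28.1, DiffBind 2.16.2, MACS2, SAMtools 1.9, Bowtie2 2.3.5 and Trimmomatic 0.38, with build mm10. Of the gene symbols, 99.9% matched RefSeq names.

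Counts were tested with edgeR 4.0.16 in R 4.3.3 (TMM, filterByExpr with a minimum count of 10, robust quasi-likelihood F test, 1 term per group, all 12 libraries), over 144014 peaks, and p-values were adjusted over all of them by Benjamini-Hochberg. Over peaks, the median biological coefficient of variation was 0.131. No spike-in was used, so a change at a peak is relative to the rest of its library. The test was checked on simulated counts. Named peaks were, in each comparison, the 6 highest and 6 lowest fold changes among called members without overlap between groups and with a mean of at least 0.5 CPM, the 10 highest members, the highest member of each list and those at the width limit. Members and lists were chosen with earlier results of these data known. The alternatives were other scalings, DESeq2 1.42.0, other filters, other member rules, a replicate block and each library left out. Same-numbered libraries had correlations of their deviations from -0.356 to 0.427 over 18 pairs, 5 of them over 0.1, so the numbers were not taken as pairs. No 2 libraries agreed within sampling noise.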

Additional observations from a re-analysis of the deposited data

Results flagged for a closer look

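Veh-CFC replicate 1 lay far from the other 5 vehicle libraries in 3 measures of the repressed-state peaks: their share of its counts was 2.169%, their mean log2 level minus that of other peaks was -0.503, and their median level was 2.44 CPM. In the same library the peaks in Aif1l and near Prok1 stood alone at 2.57 CPM each. The Dock10 peak in HDACi-CFC replicate 2, at 6.66 CPM, lay far from the other 5 drug libraries. Of 30 sets of 6 libraries examined, 6 gave such a gap. Each set mixed shocked and unshocked libraries, the 3 measures are related, and the peaks were chosen for their drug calls. The count of gaps can thus not be set against a chance rate.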

How the results depend on the processing

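Counts of members called are given as higher and lower, without any test of what caused a shift. Scaling by library totals gave 14 lower in HDACi-CFC over Veh-CFC and 99 higher in HDACi-Context over Veh-Context. Loess offsets gave 7 and 15 in HDACi-CFC over Veh-CFC. DESeq2 gave 3 lower there, 25 and 195 in HDACi-Context over Veh-Context, 37 and 185 for drug over both sessions, 85 and 27 in Veh-CFC over Veh-Context, 399 lower in HDACi-CFC over HDACi-Context and 6 higher for the interaction. DESeq2 size factors within edgeR gave 2 higher for the interaction. TMM on control-state peaks, chosen after seeing the data, gave 13 higher in HDACi-CFC over Veh-CFC, 34 higher in HDACi-Context over Veh-Context, 28 lower in Veh-CFC over Veh-Context, 240 lower in HDACi-CFC over HDACi-Context and 37 higher for the interaction. A fit on the compared groups alone gave 31 lower in Veh-CFC over Veh-Context. With the replicate number as a block, the counts were 4 and 10, 61 and 340, 66 and 355, 246 and 79, 1532 and 676, and 1 and 0, for drug after CFC, in Context and over both, shock with vehicle and with drug, and the interaction; the numbers do not pair the samples. With each library left out, higher members ranged over 0 to 16, 12 to 102, 39 to 83, 24 to 434, 1120 to 1655 and 0 to 92 in the same order, and lower members over 0 to 18, 130 to 504, 221 to 439, 4 to 101, 404 to 757 and 0 to 10. Of 71 calls at named peaks, 31 held under every alternative, among them 17 of 18 for shock with drug and 0 of 10 for drug after CFC; 205 results for single peaks lost their call under some alternative, 29 gained one, and none reversed. Peaks under 1 CPM per library rest on a few reads, where the file's floor of 1 count limits any fold.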
